A study of Mus musculus with 12 samples.

Results

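The actin gene family was followed through the mesenchyme of the developing mouse bladder and urethra. The 6 actin genes Acta1, Acta2, Actg2, Actc1, Actb and Actg1 were taken by symbol from the 55228 genes listed for every library. All 6 passed the low-count filter and stood among the 18805 genes tested. RNA was sequenced from E18.5 bladder, E18.5 urethral, E14.5 bladder and E14.5 urethral mesenchyme of female CD-1 embryos, where E is the day of gestation counted from the vaginal plug. All 4 groups were wild type and untreated, and each held 3 libraries. A library was made from the pooled female embryos of 1 litter, 3 independent litters at each stage, and each litter gave both a bladder and a urethral sample. The mesenchyme was freed from the epithelium with forceps after cold trypsin digestion, so a library can hold all mesenchymal cell types of its compartment together with any epithelium left behind. In such bulk samples, fewer cells of a type and less RNA per cell cannot be told apart. The study set out to find genes that differ between the bladder and urethral compartments.

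Actin monomers polymerise into the filaments that carry myosin contraction, cell shape and migration. The genes fall into 3 kinds by where they are mainly used: Acta2 and Actg2 encode the vascular and enteric smooth muscle forms, Acta1 and Actc1 the skeletal and cardiac forms of striated muscle, and Actb and Actg1 the cytoplasmic forms found in nearly all cells. The bladder wall is known for a thick layer of visceral smooth muscle, the detrusor, whereas the urethra also carries a striated sphincter. Many actin genes are known targets of serum response factor (SRF), which binds the CArG box and is driven in smooth muscle by its coactivator myocardin.

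The proteins are nearly alike, and the coding sequences tell the genes apart. The first 36 coding bases of each gene are shown because the start of the protein is where the isoforms differ most. Capitals mark bases that differ from, or have no partner in, the Actb sequence in a pairwise alignment over the whole coding region.
Acta2: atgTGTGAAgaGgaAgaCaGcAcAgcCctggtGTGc
Actg2: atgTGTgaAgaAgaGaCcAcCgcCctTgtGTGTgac
Acta1: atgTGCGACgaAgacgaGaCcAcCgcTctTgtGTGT
Actc1: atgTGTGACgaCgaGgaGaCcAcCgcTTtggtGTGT
Actb: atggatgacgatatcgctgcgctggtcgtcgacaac
Actg1: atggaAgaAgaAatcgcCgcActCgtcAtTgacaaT
The 4 muscle actins differed from Actb at 15 to 18 of these 36 printed bases, and Actg1 differed at 9. Over the whole coding region, of 1128 to 1134 bases, pairs of actins were 81.5% to 88.7% identical. The most alike pair was Actb and Actg1, and Acta1 and Actc1 followed among the muscle pairs at 86.2%. The longest run shared by a pair was 77 bases, in Acta1 and Actb, which is shorter than the 100-base reads. Accordingly, 0 of the 100-base windows of any actin transcript occurred in another actin. Of the Actg1 windows, however, 51.1% (946 of 1853) also occurred in 6 other annotated genes, among them Actg-ps1. Those 6 genes together held 1.96% to 4.94% as many CPM as Actg1, so the level of Actg1 is uncertain by how reads were shared with them. Of the Actb windows, 1.10% were shared with Gm15725 and Lrrc58. Sequences are from GENCODE mouse release M21 on GRCm38.

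All 6 genes lie on the minus strand of GRCm38: Acta2 at chr19:34241090-34255590, Actg2 at chr6:83512905-83536265, Acta1 at chr8:123891769-123894751, Actc1 at chr2:114047282-114053548, Actb at chr5:142903115-142906754 and Actg1 at chr11:120345690-120348542. No exon overlapped an annotated gene on the opposite strand. Of the exon bases of Actg1, 5.53% overlapped Gm23419 and Mir6935 on its own strand.

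The 250 bases before the annotated start are shown for 4 of the actins, from RefSeq on GRCm38.p6 and read in the direction of the gene, because CArG boxes of actin genes are known from such windows. The start is RefSeq's, and it differs from the gene ends listed in the count tables: 250 of the 250 bases shown for Actc1, 217 of those for Acta2, 47 of those for Actg1 and 0 of those for Acta1 lie inside the listed gene. Capitals mark CArG boxes, CArG boxes in which 1 of the 6 middle bases is neither adenine nor thymine, and the letters TATAAA where they occur.
Acta2, chr19:34255374-34255623: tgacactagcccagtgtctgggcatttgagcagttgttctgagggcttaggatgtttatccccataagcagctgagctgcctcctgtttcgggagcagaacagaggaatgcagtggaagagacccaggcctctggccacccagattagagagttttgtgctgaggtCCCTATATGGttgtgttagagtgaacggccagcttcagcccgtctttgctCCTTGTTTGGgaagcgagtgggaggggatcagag
Acta1, chr8:123894776-123895025: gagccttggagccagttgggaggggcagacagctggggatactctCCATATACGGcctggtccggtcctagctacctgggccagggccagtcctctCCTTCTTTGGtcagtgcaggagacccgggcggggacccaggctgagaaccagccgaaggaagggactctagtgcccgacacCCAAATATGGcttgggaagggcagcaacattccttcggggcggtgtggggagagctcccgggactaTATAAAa
Actc1, chr2:114052876-114053125: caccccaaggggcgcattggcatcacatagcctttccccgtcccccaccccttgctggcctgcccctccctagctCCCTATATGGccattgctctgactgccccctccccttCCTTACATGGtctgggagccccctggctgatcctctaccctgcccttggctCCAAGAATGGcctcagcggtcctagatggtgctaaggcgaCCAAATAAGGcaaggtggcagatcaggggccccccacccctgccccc
Actg1, chr11:120348496-120348745: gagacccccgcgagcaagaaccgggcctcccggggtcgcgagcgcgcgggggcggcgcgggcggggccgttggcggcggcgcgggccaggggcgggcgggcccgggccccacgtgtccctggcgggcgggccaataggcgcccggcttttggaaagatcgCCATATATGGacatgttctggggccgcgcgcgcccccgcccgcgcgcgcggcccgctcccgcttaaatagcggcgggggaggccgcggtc
Acta1, Actc1 and Actg1 each held 1 full CArG box, 73, 47 and 90 bases before the start. In Acta2 the window held 0 full boxes and 2 with 1 base off, at 84 and 34 bases before the start. Counting both kinds, Acta1 held 3, Actc1 held 4 and Actg1 held 1. Of all 32851 promoter windows in the table, 1.47% held a full box and 8.59% held a box with at most 1 base off. The CArG pattern reads the same on both strands, so both were searched at once. TATAAA stood in Acta1 alone among these 4, 7 bases before its annotated start, and in 7.59% of all windows on the gene's strand (12.4% on either strand). The motifs did not overlap, and a match describes letters, not a bound site. The looser box was added after the sequences had been seen.

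**Figure D1:**
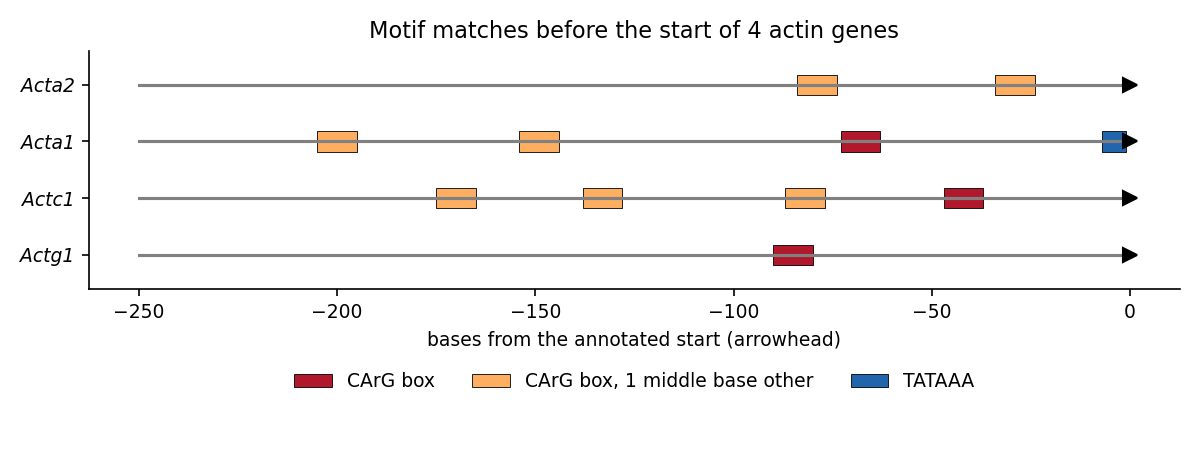
Positions of motif matches in the 250 bases before the annotated start of 4 actin genes; the horizontal axis is the distance from the start in bases, and boxes are drawn to scale. Acta2 shows 2 boxes with 1 base off and no full box, Actc1 shows 4 boxes in all, and Actg1 shows a single full box.

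Library totals ranged from 21495169 to 36349777 counts, and a count of 3 corresponded to 0.0825 to 0.1396 CPM (counts scaled to library size with TMM factors), which covers counting error only. Smooth muscle markers, leaving the actins aside, summed to 20570 to 36150 CPM in E18.5 bladder, 2437 to 2747 CPM in E18.5 urethra, 5096 to 7359 CPM in E14.5 bladder and 1601 to 3065 CPM in E14.5 urethra (10 genes). The 6 fibroblast markers summed to 26750 to 32130 CPM in E18.5 bladder, 15020 to 17140 CPM in E18.5 urethra, 18180 to 24720 CPM in E14.5 bladder and 7305 to 11000 CPM in E14.5 urethra. The 8 pericyte markers summed to 1069 to 1266 CPM in E18.5 bladder, 983.6 to 1026 CPM in E18.5 urethra, 355.6 to 564.5 CPM in E14.5 bladder and 510.6 to 716.4 CPM in E14.5 urethra. Epithelial markers summed to 8272 to 11080 CPM in E18.5 bladder, 2555 to 3899 CPM in E18.5 urethra, 335.2 to 1482 CPM in E14.5 bladder and 606.5 to 1364 CPM in E14.5 urethra (10 genes), with the highest E14.5 value in replicate 1 of each compartment. Those replicates 1 stood apart from replicates 2 and 3 in the striated muscle actins too, and results that rest on them are given with and without them. Leaving them out narrows the spread of the very genes in which they stood apart. The adjusted p-values given below without them are therefore descriptions and not independent tests. The tables of E14.5 and E18.5 are separate, so stage and any difference in handling between them cannot be told apart.

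At E18.5, 5 of the 6 actins were called, all 5 higher in bladder than in urethral mesenchyme; of all tested genes 34.8% were called, 3482 higher and 3053 lower in bladder. For all 6 actins at E18.5, and for 4 of them at E14.5, the bladder libraries lay above the urethral libraries without overlap, as did 27.9% of all tested genes at E18.5 and 19.3% at E14.5. At E14.5, 3 actins were called, all higher in bladder, where 24.9% of all tested genes were called (2335 higher and 2342 lower). From E14.5 to E18.5, 4 actins were called in bladder, all of them rising, against 45.7% of all tested genes (4461 rose and 4136 fell). In urethra 2 actins were called, both rising, against 24.4% of all tested genes (2558 rose and 2028 fell). The bladder-urethra difference itself changed between the stages for 1 actin, Actg2, and for 8.67% of all tested genes, with 873 gaining and 758 losing on the bladder side. The median log2 difference over the 6 actins was 2.80 for bladder against urethra at E18.5 (0.05 over all tested genes), 1.59 at E14.5 (−0.00), 1.86 for E18.5 against E14.5 in bladder (−0.02) and −0.13 in urethra (−0.06). A call is an adjusted p under 0.05 in edgeR's quasi-likelihood test with Benjamini-Hochberg adjustment over all tested genes.

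**Figure D2:**
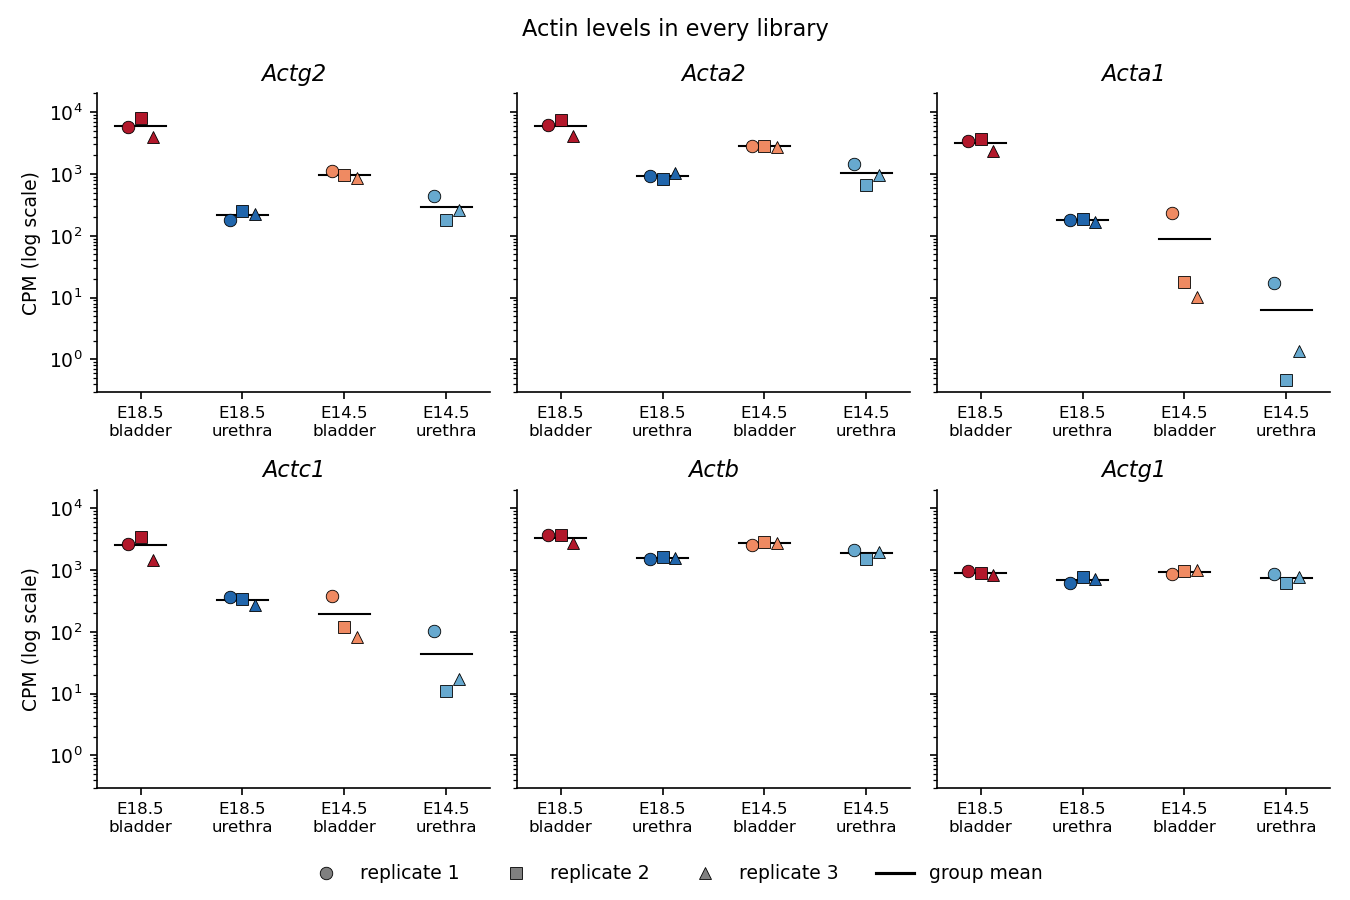
Level of each actin in each of the 12 libraries, in CPM on a log scale, with a symbol per replicate and a bar for the group mean. The 4 muscle actins are highest in the 3 E18.5 bladder libraries, replicate 1 of both E14.5 groups lies above replicates 2 and 3 for Acta1 and Actc1, and Actg1 spans 603.7 to 984.3 CPM over all 12 libraries.

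Actg2, the enteric smooth muscle actin, showed the largest compartment difference of the family at E18.5 and was the actin whose difference changed with stage. Its level was 5806, 8178 and 3962 CPM in E18.5 bladder, 180.9, 252.1 and 228.4 CPM in E18.5 urethra, 1098, 960.3 and 846.3 CPM in E14.5 bladder and 437.5, 182.2 and 260.2 CPM in E14.5 urethra. Every bladder library lay above every urethral library, and the E18.5 bladder libraries lay above all others, while the urethral libraries of both stages overlapped. Actg2 was 27.1-fold higher in bladder at E18.5 (log2 difference 4.76 ± 0.36 SE, adjusted p = 3.76e-06) and 3.30-fold higher at E14.5 (1.72 ± 0.32, adjusted p = 0.00274). The compartment difference was 3.04 ± 0.44 log2 units larger at E18.5 than at E14.5 (adjusted p = 0.00291), and that change was called in every alternative fit. Within bladder, Actg2 was 6.18-fold higher at E18.5 (2.63 ± 0.33, adjusted p = 7.52e-05). Within urethra the E18.5 minus E14.5 difference was −0.41 ± 0.31 (adjusted p = 0.362), and 0.02 ± 0.27 without replicate 1 of both E14.5 groups.

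Acta2, the vascular smooth muscle actin that is also made early in visceral smooth muscle and in myofibroblasts, was already abundant at E14.5. Its level was 6232, 7501 and 4176 CPM in E18.5 bladder, 928, 828.8 and 1025 CPM in E18.5 urethra, 2810, 2856 and 2750 CPM in E14.5 bladder and 1438, 672 and 973.5 CPM in E14.5 urethra. Bladder lay above urethra at both stages without overlap, and the urethral libraries of the stages overlapped. Acta2 was 6.44-fold higher in bladder at E18.5 (2.69 ± 0.27, adjusted p = 1.75e-05) and 2.73-fold higher at E14.5 (1.45 ± 0.26, adjusted p = 0.00205). In bladder it was 2.13-fold higher at E18.5 than at E14.5 (1.09 ± 0.25, adjusted p = 0.00399), and in urethra the difference was −0.15 ± 0.25 (adjusted p = 0.709). The growth of the compartment difference, 1.24 ± 0.36, missed the threshold at adjusted p = 0.0506. It passed under DESeq2 (adjusted p = 0.0140), without E14.5 urethra replicate 2 (adjusted p = 0.0152) and without E18.5 bladder replicate 3 (adjusted p = 0.0264), and ranged from 0.0152 to 0.118 as single libraries were left out.

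The smooth muscle markers moved with both genes, and their part in the actin differences was not tested. Of the 10 markers, all of them other genes than the actins, 10 were higher in bladder at E18.5 and 8 at E14.5, 9 rose in bladder, 1 rose and 1 fell in urethra, and 6 gained compartment difference with stage. Their median log2 difference, bladder minus urethra, was 3.46 at E18.5 and 1.40 at E14.5. Among them, Myh11, the smooth muscle myosin heavy chain, averaged 10540 ± 3798 CPM in E18.5 bladder, 657.6 ± 91.3 CPM in E18.5 urethra, 1465 ± 395 CPM in E14.5 bladder and 560.5 ± 266.0 CPM in E14.5 urethra (SD, n = 3 each). Cnn1, the thin-filament protein calponin, averaged 2171 ± 1026 CPM in E18.5 bladder, 138.2 ± 7.71 CPM in E18.5 urethra, 408.9 ± 89.5 CPM in E14.5 bladder and 170.1 ± 68.0 CPM in E14.5 urethra.

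Acta1, the skeletal muscle actin, changed most with stage. Its level was 3461, 3689 and 2341 CPM in E18.5 bladder, 182, 190.2 and 164.7 CPM in E18.5 urethra, 237.8, 17.7 and 10.1 CPM in E14.5 bladder and 17.4, 0.470 and 1.36 CPM in E14.5 urethra. At E18.5 the compartments did not overlap. At E14.5 replicate 1 was 17.1-fold above the mean of replicates 2 and 3 in bladder and 19.0-fold above it in urethra, and the bladder libraries overlapped the range of the urethral ones. The lowest E14.5 urethral library held 18 counts of Acta1.

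Acta1 was 17.7-fold higher in bladder than in urethra at E18.5 (4.14 ± 1.32, adjusted p = 0.0315). The spread behind that SE is shared by all 12 libraries: leaving out any 1 of the 6 E18.5 libraries ended the call (adjusted p 0.051 to 0.098), as did dropping the low-count filter (0.105). With the E18.5 libraries alone the difference was 4.09 ± 0.22 (adjusted p = 5.29e-06), and without replicate 1 of both E14.5 groups it was 4.11 ± 0.30 (adjusted p = 1.94e-06). At E14.5 the difference of 3.81 ± 1.33 was not called (adjusted p = 0.0596), and without those replicates it was 3.98 ± 0.43 and called (adjusted p = 0.000109). Acta1 rose in bladder from E14.5 to E18.5 by 5.16 ± 1.39 log2 units (adjusted p = 0.0112) and in urethra by 4.83 ± 1.39 (adjusted p = 0.0288). Without the replicates 1, these changes were 7.83 ± 0.43 in bladder and 7.70 ± 0.46 in urethra (adjusted p = 4.33e-07 and 1.94e-06). The fits without these replicates drop the libraries that stood apart in Acta1 itself, so their smaller SE and p-values are no independent support. The urethral call ended without the low-count filter (0.0952) and without urethral replicate 2 or 3 of E14.5 or any urethral replicate of E18.5 (0.055 to 0.103). The change of the compartment difference between stages was 0.33 ± 1.69 (adjusted p = 0.933), and it ran from −2.51 without E14.5 urethra replicate 1 to 2.99 at the other end as single libraries were left out.

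Actc1, the cardiac actin, which is also made in developing skeletal muscle, followed the same order with smaller steps. Its level was 2626, 3388 and 1451 CPM in E18.5 bladder, 369.5, 343.2 and 274.6 CPM in E18.5 urethra, 384.6, 121.5 and 82.3 CPM in E14.5 bladder and 101.1, 11.1 and 17.3 CPM in E14.5 urethra. The E18.5 bladder libraries lay above all others, E18.5 urethra overlapped E14.5 bladder through replicate 1, and the E14.5 groups overlapped. Actc1 was 7.56-fold higher in bladder at E18.5 (2.92 ± 0.83, adjusted p = 0.0181), a call that ended without the low-count filter (0.0685) and without any 1 of the E18.5 urethral libraries (0.057 to 0.065). At E14.5 it was 2.19 ± 0.81 and not called (adjusted p = 0.0713), and 2.84 ± 0.38 without replicate 1 of both groups (adjusted p = 0.000396). Actc1 rose in bladder by 3.67 ± 0.85 (adjusted p = 0.00518) and in urethra by 2.93 ± 0.83 (adjusted p = 0.0267). Without the replicates 1 the changes were 4.61 ± 0.39 in bladder and 4.56 ± 0.40 in urethra (adjusted p = 4.68e-06 and 1.86e-05). The urethral call ended without the low-count filter (0.0887) and without urethral replicate 2 or 3 of E14.5 or any urethral replicate of E18.5 (0.052 to 0.099).

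Between the compartments the skeletal muscle markers did not follow the striated actins as a set. Their sum was 732.5 to 1228 CPM in E18.5 bladder, 746.3 to 1161 CPM in E18.5 urethra, 20.0 to 49.4 CPM in E14.5 bladder and 21.5 to 138.6 CPM in E14.5 urethra (12 genes). At E18.5, 2 of the 12 were higher and 7 were lower in bladder (median log2 difference −4.62), and at E14.5 3 were lower. With stage, 5 rose in bladder and 12 rose in urethra (median 0.96 in bladder and 3.90 in urethra). The defining regulators of skeletal myogenesis were at or near 0 in E18.5 bladder: Myod1 held 0, 2 and 2 counts, Myog 0, 4 and 18, Pax7 0, 7 and 0, and Myf5 2, 1 and 4. In E18.5 urethra, Myod1 averaged 40.2 ± 7.89 CPM and Myog 122 ± 23.3 CPM. Embryonic myosin heavy chain Myh3 averaged 3.62 ± 3.38 CPM in E18.5 bladder and 415.9 ± 104.5 CPM in E18.5 urethra, and the fast light chain Mylpf 1.09 ± 0.20 CPM in E18.5 bladder and 106 ± 12.8 CPM in E18.5 urethra. Other genes of striated muscle lay with the actins on the bladder side. Ckm, muscle creatine kinase, had 645.9, 689 and 462.2 CPM in E18.5 bladder and 38.2, 37.3 and 28.9 CPM in E18.5 urethra, and the troponin gene Tnnt3 averaged 280.1 ± 115.8 CPM in E18.5 bladder and 43.4 ± 9.81 CPM in E18.5 urethra. In E14.5 bladder Ckm held 378 counts in replicate 1 and 4 and 0 counts in replicates 2 and 3.

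**Figure D3:**
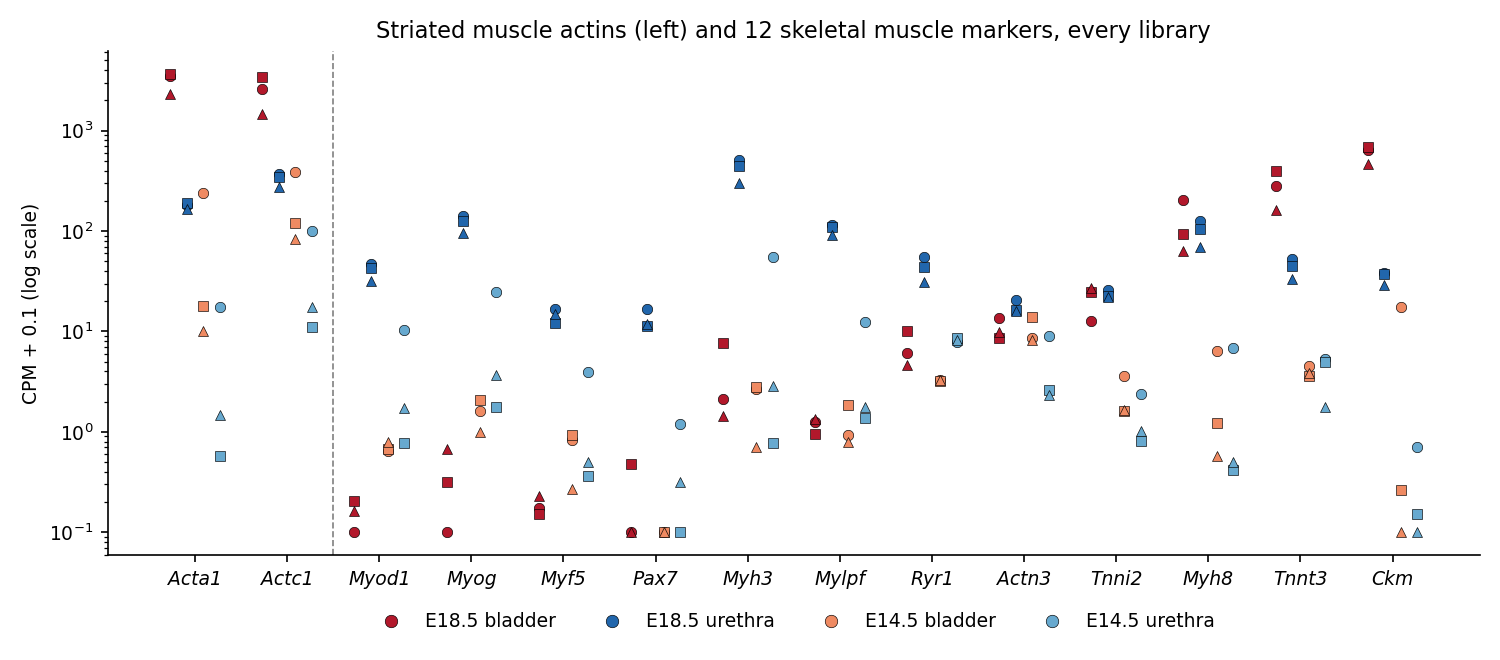
Acta1 and Actc1 (left of the dashed line) and 12 skeletal muscle markers in each library, as CPM plus 0.1 on a log scale, coloured by group with a symbol per replicate (circle, square and triangle for 1, 2 and 3). In E18.5 bladder the regulators Myod1, Myog, Myf5 and Pax7 lie near the floor while Acta1, Actc1, Tnnt3 and Ckm are high; in E18.5 urethra the regulators and Myh3 are high.

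Heart muscle markers summed to 173.6 to 319.6 CPM in E18.5 bladder, 72.7 to 100.8 CPM in E18.5 urethra, 39.3 to 79.4 CPM in E14.5 bladder and 6.27 to 14.9 CPM in E14.5 urethra (8 genes), and most of the E18.5 sum was Myl4, an atrial and embryonic light chain, at 216.5 ± 67.6 CPM in bladder and 75.1 ± 12.5 CPM in urethra. The defining heart regulator Nkx2-5 held 0 to 4 counts in every library and was not tested. Of the 7 tested heart markers, 3 were higher and 1 lower in bladder at E18.5, and 3 were higher at E14.5. With stage 3 rose and 2 fell in bladder, and 2 rose in urethra. Myl7 averaged 5.55 CPM in E18.5 bladder and 0.302 CPM in E18.5 urethra (4.24 ± 0.55, adjusted p = 0.000107). Epithelial markers also moved with Acta1 and Actc1: 5 of 10 were higher in bladder at E18.5, 10 of 10 rose in bladder and 6 of 10 rose in urethra. At E14.5, where Acta1 and Actc1 had higher means in bladder, 1 epithelial marker was higher in bladder, Upk2 (2.05, adjusted p = 0.0410). There 2 were lower, Krt5 of basal cells (−4.11, adjusted p = 0.0129) and Trp63 (−2.55, adjusted p = 0.00678). The median log2 difference of the 10 epithelial markers was 0.30, and their sum averaged 745.9 CPM in bladder and 891.6 CPM in urethra. Of the fibroblast markers, 3 of 6 were higher and 1 lower in bladder at E18.5 and 5 were higher and 1 lower at E14.5, and with stage 3 rose and 1 fell in bladder while 5 rose and 1 fell in urethra. Of the pericyte markers, 2 of 8 were higher and 4 lower in bladder at E18.5, 3 were lower at E14.5, and with stage 5 rose and 1 fell in bladder while 5 rose in urethra. Other markers went with the compartment in both directions: at E18.5, 4 of 5 mesothelial markers were higher in bladder, and 6 of 6 neuronal markers, 3 of 4 glial markers and 3 of 6 endothelial markers were lower in bladder. The part of these other cell types in the levels of the actins was not tested.

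The cytoplasmic actins varied least. Actb had 3622, 3642 and 2708 CPM in E18.5 bladder, 1478, 1592 and 1547 CPM in E18.5 urethra, 2547, 2837 and 2771 CPM in E14.5 bladder and 2119, 1503 and 1950 CPM in E14.5 urethra. Bladder lay above urethra at each stage without overlap, and within a compartment the stages overlapped. Actb was 2.16-fold higher in bladder at E18.5 (1.11 ± 0.16, adjusted p = 0.000178) and 1.46-fold higher at E14.5 (0.55 ± 0.16, adjusted p = 0.0227). The E14.5 call ended without bladder replicate 2 or 3 or urethral replicate 2 or 3 of that stage (adjusted p 0.053 to 0.070), and at 0.0515 with the E14.5 libraries alone. Its stage differences, 0.29 ± 0.15 in bladder and −0.27 ± 0.15 in urethra, were not called (adjusted p = 0.143 and 0.226). Actb is widely used to scale other genes in quantitative PCR.

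Actg1 had 962.5, 899.4 and 817.3 CPM in E18.5 bladder, 603.7, 758 and 722.1 CPM in E18.5 urethra, 868.1, 972.4 and 984.3 CPM in E14.5 bladder and 864.1, 615.7 and 762 CPM in E14.5 urethra. At E18.5 the compartments did not overlap, and at E14.5 the highest urethral library fell just under the lowest bladder library. The log2 difference, bladder minus urethra, was 0.36 ± 0.14 at E18.5 (adjusted p = 0.0695) and 0.33 ± 0.14 at E14.5 (adjusted p = 0.109), so neither passed the threshold. Over stages it was −0.08 ± 0.14 in bladder and −0.11 ± 0.14 in urethra (adjusted p = 0.689 and 0.636). Without E14.5 urethra replicate 1 the E14.5 difference was 0.45 ± 0.15 and passed (adjusted p = 0.0480), and without E14.5 urethra replicate 2 the E18.5 one passed (adjusted p = 0.0353).

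**Figure D4:**
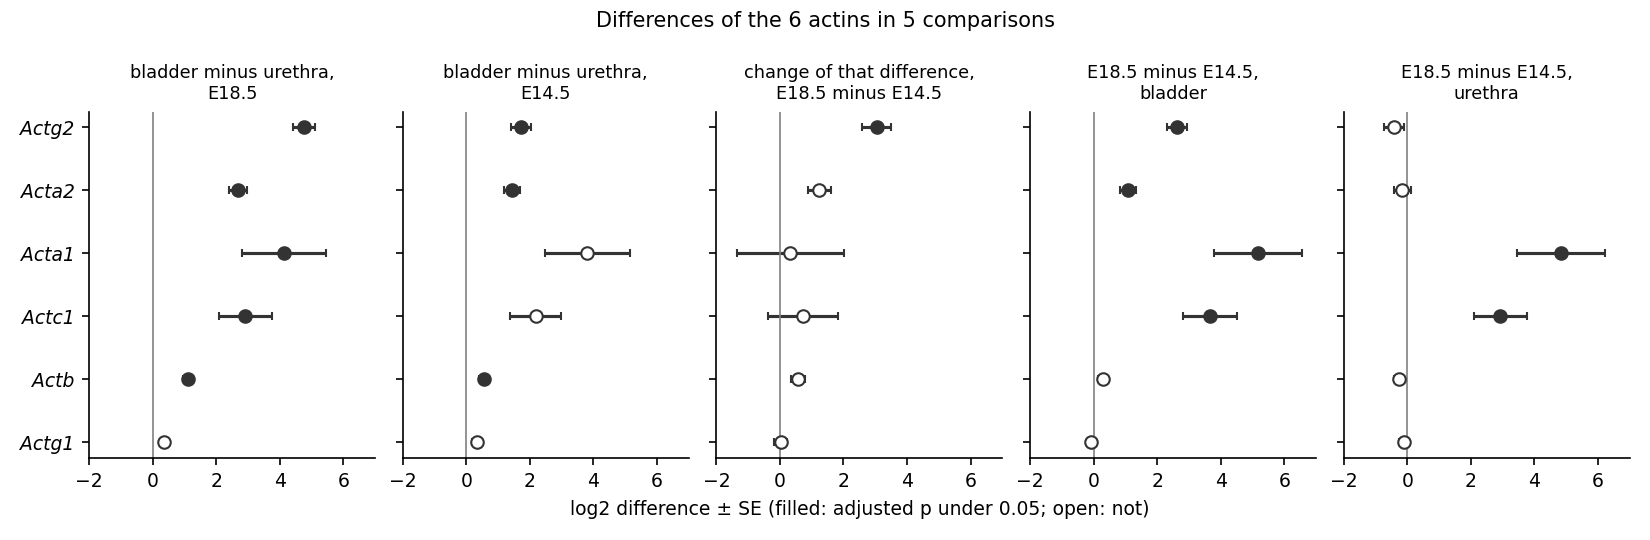
Log2 difference of each actin with its SE (bars) in the 5 comparisons, on a common horizontal axis; filled points passed an adjusted p of 0.05 and open points did not. Actg2 has the largest difference at E18.5 (4.76) and the only filled point for the change of the difference (3.04), and the bars of Acta1 and Actc1 are the widest.

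The family's total and its makeup differed between groups. The 6 actins summed to 22710, 27300 and 15460 CPM in E18.5 bladder, 3742, 3965 and 3962 CPM in E18.5 urethra, 7945, 7765 and 7444 CPM in E14.5 bladder and 4978, 2985 and 3964 CPM in E14.5 urethra. They took 1.89% ± 0.47 of all counts in E18.5 bladder, 0.421% ± 0.013 in E18.5 urethra, 0.762% ± 0.044 in E14.5 bladder and 0.426% ± 0.096 in E14.5 urethra (SD, n = 3 each). The 4 muscle actins made up 80.1% ± 3.1 of the summed actin CPM in E18.5 bladder and 42.6% ± 1.8 in E18.5 urethra, a difference of 37.5 percentage points. At E14.5 they made up 52.5% ± 4.0 in bladder and 33.6% ± 5.8 in urethra, a difference of 18.9 points. The groups did not overlap in either comparison, nor in those between stages, where the share was 27.6 points higher at E18.5 in bladder and 9.05 points higher in urethra. Each of these 4 exact two-sided permutation tests gave p = 0.1, the smallest that 3 against 3 libraries allow. These tests take the libraries as unpaired; with swaps within the same-numbered pairs of E18.5, the muscle share was higher in bladder in 3 of 3 pairs and the exact paired permutation test gave p = 0.25, again the smallest it allows.

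The striated pair made up 22.1 of the 27.6 points gained in bladder, and in urethra it gained 12.01 points while the smooth muscle pair held 2.97 points less, with overlap. In bladder the smooth muscle pair held 54.4% ± 2.7 of the actin CPM at E18.5 and 48.9% ± 0.5 at E14.5, while the striated pair held 25.7% ± 1.1 at E18.5 and 3.62% ± 3.66 at E14.5 (7.83%, 1.79% and 1.24% in replicates 1 to 3, and 1.52% on average without replicate 1). Per kilobase of exon the smooth muscle share of the bladder was 55.5% ± 2.4 at E18.5 and 55.1% ± 0.8 at E14.5 with overlap, so its difference of counts was not seen on that scale. In urethra the smooth muscle pair held 29.5% ± 2.2 at E18.5 and 32.5% ± 4.7 at E14.5 with overlap (exact permutation p = 0.5). Without replicate 1 its E14.5 share averaged 29.9%. The striated pair of the urethra held 13.1% ± 1.8 at E18.5 and 1.08% ± 1.13 at E14.5 without overlap (exact permutation p = 0.1, the smallest possible). The E14.5 urethral values of the striated pair were 2.38%, 0.386% and 0.471%, and 0.429% on average without replicate 1. Within the smooth muscle pair of the bladder, Actg2 held 27.1% ± 2.5 at E18.5 and 12.5% ± 1.2 at E14.5, while Acta2 held 27.3% ± 0.3 at E18.5 and 36.4% ± 0.9 at E14.5. Actb held 15.6% ± 2.1 of the actin CPM in E18.5 bladder, 39.6% ± 0.6 in E18.5 urethra, 35.3% ± 2.8 in E14.5 bladder and 47.4% ± 4.2 in E14.5 urethra. These are shares of counts, which grow with transcript length. Per kilobase of exon the muscle share was 86.1% ± 2.4 in E18.5 bladder, 51.4% ± 1.7 in E18.5 urethra, 60.1% ± 4.3 in E14.5 bladder and 40.2% ± 6.5 in E14.5 urethra.

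**Figure D5:**
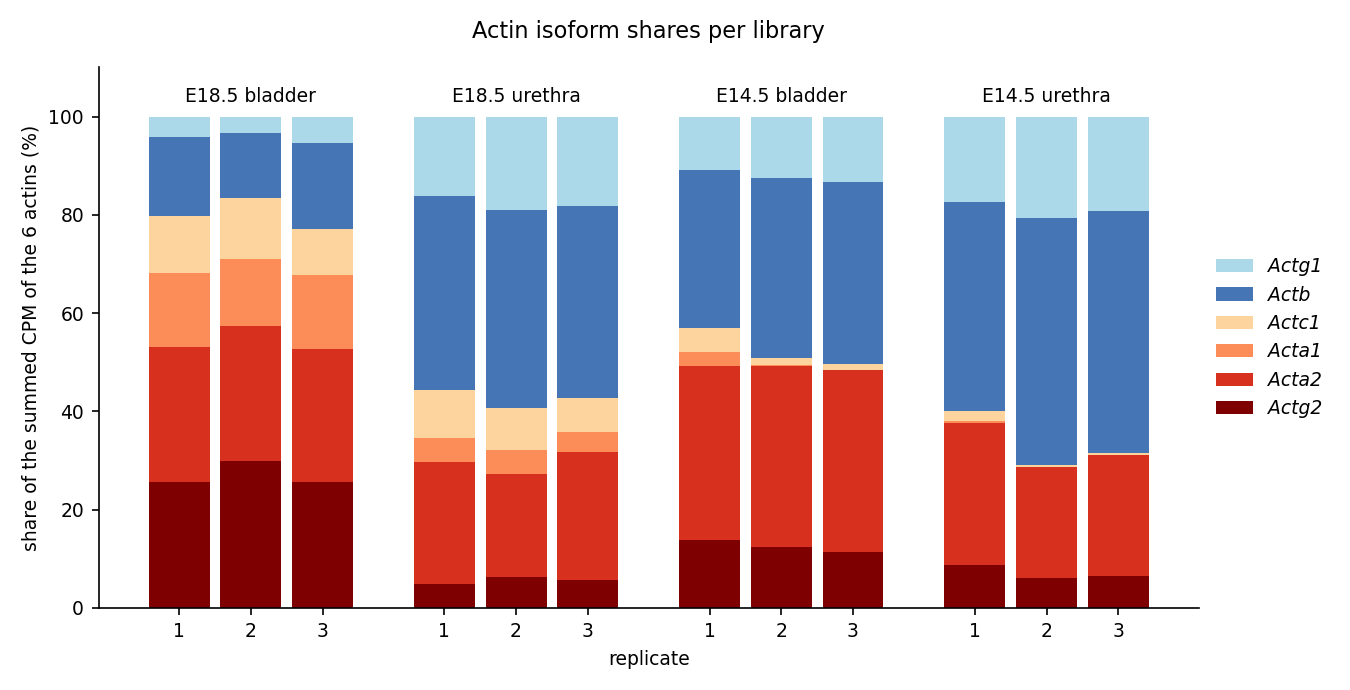
Share of each actin in the summed CPM of the 6 actins, as a stacked bar per library, grouped by stage and compartment. The smooth muscle actins (dark reds) and striated actins (light oranges) together fill 77.2% to 83.4% of the E18.5 bladder bars and 29% to 57% of the bars of the other groups.

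Per kilobase of exon, the order of the family also changed. The exon lengths listed were 2679 bases for Actb and 2658 for Actg1, against 1920 and 1952 in the transcripts whose coding bases are shown. For Acta2 they were 2196 and 2035, for Actg2 1557 and 1333, for Acta1 1536 and 1446 and for Actc1 1618 and 1473. The listed lengths thus lower Actb and Actg1 relative to the muscle actins, here and in the per-kilobase shares. Orders, overlaps and shares on transcript lengths were not computed. In E18.5 bladder the mean levels were 3842 CPM per kilobase for Actg2, 2718 for Acta2, 2060 for Acta1, 1538 for Actc1, 1241 for Actb and 336 for Actg1. Across libraries, of these neighbours only Actb and Actg1 had ranges that did not overlap. Within each E18.5 bladder library, however, Actg2 lay above Acta2, Acta2 above Acta1 and Acta1 above Actc1. Actc1 lay above Actb except in replicate 3 (896.5 for Actc1 and 1011 for Actb). In E14.5 bladder the order was Acta2 (1277 CPM per kilobase), Actb (1015), Actg2 (621.8), Actg1 (354.2), Actc1 (121.2) and Acta1 (57.6). Only Actc1 and Acta1 overlapped among neighbours, although Actc1 was the higher in every E14.5 bladder library (Acta1 over Actc1 0.129 to 0.651). In E18.5 urethra Actb led at 574.5 CPM per kilobase, followed without overlap by Acta2 at 422.2, and Acta1 was lowest at 116.5. In E14.5 urethra Actb led at 693.4 and its range overlapped that of Acta2 at 468, and Acta1 was lowest at 4.17. Within each E14.5 urethral library Actb lay above Acta2 (Acta2 over Actb 0.545 to 0.828).

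The ratio of Actg2 to Acta2 per kilobase separated E18.5 bladder from the other groups. It was 1.31 to 1.54 in E18.5 bladder, 0.275 to 0.429 in E18.5 urethra, 0.434 to 0.551 in E14.5 bladder and 0.377 to 0.429 in E14.5 urethra. The mean ratio was 4.11-fold higher in bladder than in urethra at E18.5 and 1.23-fold higher at E14.5. The ratio of Acta1 to Actc1 was 1.15 to 1.70 in E18.5 bladder, 0.519 to 0.632 in E18.5 urethra, 0.129 to 0.651 in E14.5 bladder and 0.0448 to 0.181 in E14.5 urethra, with the highest value of each E14.5 group in replicate 1. The ratio of Actb to Actg1 was 3.29 to 4.02 in E18.5 bladder, 2.08 to 2.43 in E18.5 urethra, 2.79 to 2.91 in E14.5 bladder and 2.42 to 2.54 in E14.5 urethra. Each of these 3 ratios differed between the compartments at E18.5 without overlap (exact unpaired permutation p = 0.1 each and exact paired p = 0.25 each, the smallest possible in either).

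Among the regulators of actin genes, SRF and its coactivators held 4 tested genes, of which 2 were higher in bladder at each stage (median log2 difference 0.68 at E18.5 and 0.53 at E14.5). For this and the following lists, the medians and the shares called over all tested genes are those given above. Myocd, which encodes myocardin, averaged 100.7 ± 40.3 CPM in E18.5 bladder, 17.3 ± 2.64 CPM in E18.5 urethra, 150.3 ± 55.4 CPM in E14.5 bladder and 48.4 ± 12.4 CPM in E14.5 urethra. It was higher in bladder at E18.5 (2.54 ± 0.34, adjusted p = 0.000175) and at E14.5 (1.64 ± 0.32, adjusted p = 0.00473), and it fell in urethra between the stages (−1.48 ± 0.33, adjusted p = 0.00821). Srf was higher in bladder by 1.18 ± 0.18 at E18.5 and 0.76 ± 0.18 at E14.5 (adjusted p = 0.000379 and 0.0111). Between the stages in bladder, Srf differed by 0.14 ± 0.18 (adjusted p = 0.562). Of 10 further SRF partners, 5 were higher and 3 lower in bladder at E18.5, and 5 were higher at E14.5 (medians 0.65 and 0.58). Csrp1, a LIM protein that bridges SRF and GATA factors in smooth muscle, averaged 2223 ± 941 CPM in E18.5 bladder, 270.5 ± 21.1 CPM in E18.5 urethra, 553.2 ± 170.2 CPM in E14.5 bladder and 184.6 ± 45.9 CPM in E14.5 urethra, and its compartment difference grew by 1.46 ± 0.41 with stage (adjusted p = 0.0466). Csrp3, its striated muscle relative, was lower in E18.5 bladder, at 0.435 ± 0.459 CPM and 10.2 ± 1.58 CPM in E18.5 urethra (adjusted p = 0.000494).

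Proteins that hold or recycle actin monomers were mostly on the bladder side. Of 13 genes, 7 were higher and 1 lower in bladder at E18.5, and 9 were higher and 2 lower at E14.5 (median log2 difference 0.54 at E18.5 and 0.56 at E14.5). Dstn, the filament-severing destrin, averaged 1296 ± 362 CPM in E18.5 bladder, 390.1 ± 28.6 CPM in E18.5 urethra, 826.5 ± 94.9 CPM in E14.5 bladder and 400.9 ± 57.5 CPM in E14.5 urethra. Pfn1, the monomer-binding profilin, was higher in bladder at E14.5 (0.95 ± 0.12, adjusted p = 0.000356). Gsn, the severing protein gelsolin, rose with stage by 2.51 ± 0.32 in bladder and 2.40 ± 0.32 in urethra (adjusted p = 9.82e-05 and 0.000610). Tmsb4x, which encodes a protein that buffers monomers, did not pass in any of the 5 comparisons. Of the 10 Arp2/3 subunits, which seed branched filaments, 4 were higher in bladder at E18.5 and 6 at E14.5 (medians 0.30 and 0.52). Arpc1b rose in urethra by 1.24 ± 0.14 (adjusted p = 0.000264), and its compartment difference shrank by stage (−0.75 ± 0.19, adjusted p = 0.0308).

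The 15 formins, which elongate unbranched filaments, split in both directions, with 5 higher and 5 lower in bladder at E18.5 (median −0.34). Diaph1 averaged 165.1 ± 5.72 CPM in E18.5 bladder, 78.4 ± 5.30 CPM in E18.5 urethra, 60.9 ± 4.76 CPM in E14.5 bladder and 62.0 ± 7.42 CPM in E14.5 urethra, and its compartment difference grew by 1.10 ± 0.16 (adjusted p = 0.00229). Daam2 went the other way, at 55.7 ± 4.71 CPM in E18.5 bladder, 158.8 ± 30.4 CPM in E18.5 urethra, 116 ± 21.0 CPM in E14.5 bladder and 172.7 ± 9.44 CPM in E14.5 urethra (change of the difference −0.94 ± 0.22, adjusted p = 0.0217). Of 17 genes that fold actin or finish its N terminus, 13 fell and 2 rose in bladder between the stages and 8 fell in urethra (median log2 difference −0.56 in bladder and −0.32 in urethra). Cct3, a subunit of the chaperonin that folds actin and tubulin, averaged 229.6 ± 30.0 CPM in E18.5 bladder, 235 ± 15.3 CPM in E18.5 urethra, 419 ± 73.6 CPM in E14.5 bladder and 331.1 ± 22.6 CPM in E14.5 urethra. Setd3, which methylates a histidine of actin, was higher in bladder at E18.5 (0.43 ± 0.09, adjusted p = 0.00255). Of 8 tested actin-related genes outside Arp2/3, 1 was lower in bladder at E18.5, against 16.2% of all tested genes. It was Actl6b, a subunit of a neuronal chromatin-remodelling complex. Actr1a of the dynactin complex differed at that stage by −0.01 ± 0.11 (adjusted p = 0.972).

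Proteins that line or cross-link actin filaments were called in both directions. All 4 tropomyosin genes were tested, and 3 were higher in bladder at E18.5 and 4 at E14.5 (medians 1.28 and 0.74). Tpm2 averaged 2688 ± 739 CPM in E18.5 bladder, 348.8 ± 14.7 CPM in E18.5 urethra, 707.2 ± 134.5 CPM in E14.5 bladder and 205.3 ± 74.7 CPM in E14.5 urethra. Of 7 leiomodins and tropomodulins, which nucleate filaments or cap their slow-growing ends, 2 were higher and 3 lower in bladder at E18.5 (median −0.20). Lmod1, the smooth muscle leiomodin, was higher in bladder by 3.70 ± 0.32 at E18.5 and 1.75 ± 0.30 at E14.5 (adjusted p = 1.10e-05 and 0.00204), and the difference grew with stage by 1.95 ± 0.42 (adjusted p = 0.0155). Lmod3, the skeletal muscle leiomodin, had 0.382 ± 0.366 CPM in E18.5 bladder and 7.62 ± 1.78 CPM in E18.5 urethra (adjusted p = 0.0152). Of 7 alpha-actinins and filamins, 5 were higher and 1 lower in bladder at E18.5. At E14.5 1 was higher, against 12.4% of all tested genes (medians 1.06 at E18.5 and 0.37 at E14.5). Flna, filamin A, averaged 7513 ± 2539 CPM in E18.5 bladder, 1557 ± 203 CPM in E18.5 urethra, 3244 ± 456 CPM in E14.5 bladder and 1813 ± 108 CPM in E14.5 urethra. Actn2, the alpha-actinin of striated Z discs, had 2.05 ± 0.89 CPM in E18.5 bladder and 79.2 ± 18.3 CPM in E18.5 urethra (adjusted p = 0.00168).

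The myosin heavy chains pull on these filaments. Of the 4 smooth and non-muscle heavy chains, 2 were higher in bladder at each stage (median 0.82 at E18.5 and 0.47 at E14.5). The compartment difference of Myh11 grew with stage by 2.62 ± 0.50 (adjusted p = 0.00872). Of 7 tested striated heavy chains, 1 was higher and 1 lower in bladder at E18.5, while 5 rose in bladder and 6 rose in urethra between the stages (medians 4.30 and 4.51). Myh2, a fast adult form, had 26.1 ± 18.6 CPM in E18.5 bladder and 2.54 ± 0.88 CPM in E18.5 urethra (3.36 ± 0.65, adjusted p = 0.00190), whereas Myh3 was lower in E18.5 bladder (adjusted p = 0.00363). Summed over the 8 listed genes, striated heavy chains reached 205.9 ± 109.9 CPM in E18.5 bladder and 576.2 ± 146.6 CPM in E18.5 urethra.

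The genes most like each actin were sought over the 12 libraries among 12138 tested genes with at least 5 CPM on average. Actins, predicted genes, pseudogenes and clone names were left out of these. Likeness was the root mean square difference of log2 CPM after centring each gene on its own mean. Centring takes out a gene's mean level. The libraries share the group differences, so the measure describes only likeness of pattern over the libraries. Closest to Acta2 were Myl9 (0.10 log2 units), a regulatory myosin light chain, Mylk (0.21), the kinase that phosphorylates it, and Jph2 (0.22). Acta2 itself varied about its mean by 1.14 log2 units. Closest to Actg2, which varied by 1.91, were Bves (0.35), Cnn1 (0.37) and Optc (0.42). Closest to Actc1, which varied by 2.47, were Mrgprf (0.40), Ndufa4l2 (0.56) and Ldb3 (0.56), the last a Z-disc protein. Closest to Acta1, which varied by 4.03, were Psca (1.16), Sptssb (1.198) and Cd163 (1.27). These distances were larger than those of the other actins, all of which varied less about their means. The nearest other actin, sought separately, was Actc1 at 1.60. Psca, a surface antigen of urothelium, averaged 849.9 CPM in E18.5 bladder, 274.5 CPM in E18.5 urethra, 28.9 CPM in E14.5 bladder and 2.87 CPM in E14.5 urethra. Closest to Actb, which varied by 0.46, were Mapkapk2 (0.09), Zyx (0.12), a focal adhesion protein, and Clic4 (0.13). Closest to Actg1, which varied by 0.23, were Snx17 (0.08), Rab1a (0.09) and Nudt9 (0.09).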

How the data were processed

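Mesenchyme was sequenced in 12 poly(A)-selected directional libraries with 100 bp read pairs, per the labels' protocols. Upstream tools, per the submitters' processing notes, were HISAT2 2.2.1, SAMtools 1.9 and bcl2fastq, with the build GRCm38; the counting tool, strand setting and annotation are not given in the sources used here. The authors deposited raw counts per gene symbol, not normalized, in 1 table per stage. Genes with 2 counts outnumbered those with 1 count 2.06-fold to 2.51-fold in every library, so counting floors assume an independence that single counts may not have.

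Genes kept by edgeR 4.0.16 filterByExpr (minimum count 10) were scaled with TMM factors. Differences were tested in R 4.3.3 with edgeR's quasi-likelihood method, robust option on, in 1 model of 4 group means with 8 residual degrees of freedom, after the scripts had been tested on simulated data. P-values of this model rest on the spread between the libraries of a group, pooled over the 4 groups. The model takes the bladder and urethral samples of a litter as unpaired, so its p-values do not measure the spread of differences within litters. Shares and ratios were tested by exact permutation of unpaired libraries and, at E18.5, within pairs (scipy 1.17.1). CPM per kilobase uses the exon length listed in the deposited tables. The actins and all gene lists were chosen with earlier results of these data known. All 6 actins are named; from each list the rule gave up to 3 called members per comparison with the largest difference and at least 5 CPM in the higher group, plus the one of highest mean CPM, and the text gives a selection of these made after their values were seen. Mylpf and Nkx2-5 were added outside that rule. RefSeq promoters matched 4 of the 6 actins.

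Alternatives were median-ratio size factors, DESeq2 1.42.0, limma-voom (limma 3.58.1), no low-count filter (32061 genes), a filter asking for an average of 1 CPM or more and 10 counts throughout a group (15804 genes), the compared libraries alone, replicate number as a block, each library left out, and replicate 1 of both E14.5 groups left out. Each litter gave both compartments, per the series' design text, but no label ties a replicate number to a litter. At E18.5, after subtracting group means, bladder and urethral libraries of equal number had correlations of 0.197, 0.193 and 0.286 (replicates 1 to 3), so the numbers were taken to pair the E18.5 samples.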

Additional observations from a re-analysis of the deposited data

Results flagged for a closer look

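The bladder-urethra difference of Actg2 was larger at E18.5 than at E14.5 by 3.04 log2 units (SE 0.44, edgeR interaction term, adjusted p = 0.00291), with values from 2.63 to 3.29 as each of the 12 libraries was left out. All 3 bladder libraries lay above all 3 urethral libraries at both stages. Groups held 3 libraries each, too few for a check of single outlying libraries.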

How the results depend on the processing

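Of the single-gene results under an alternative, 530 kept direction and side of the threshold, 28 lost and 17 gained a call, and 14 turned direction, all of these not called. The count of actins called higher in bladder at E14.5 was 3, and it became 5 with the replicate block and 2 to 6 with single libraries left out. It was 6 without replicate 1 of both E14.5 groups, the libraries that stood apart in Acta1 and Actc1. At E18.5 the count of 5 became 3 without the low-count filter and 3 to 6 with single libraries left out. For the change of the difference the count of 1 became 2 under DESeq2 and 1 to 3 with single libraries left out. In bladder between stages, 4 became 3 under DESeq2, which gave Acta1 no adjusted p in any comparison, and 4 to 5 with single libraries left out. In urethra between stages, 2 became 1 under DESeq2, 0 without the low-count filter and 0 to 2 with single libraries left out. The cause was not tested.

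The muscle share difference, in percentage points, ran from 16.7 to 22.2 at E14.5, 35.9 to 39.0 at E18.5, 15.3 to 20.8 for the change, 26.0 to 29.9 between stages in bladder and 6.78 to 12.3 in urethra with single libraries left out. At E18.5 it was 34.7 per kilobase. With smooth muscle actins alone it was 24.9 at E18.5, 8.45 for the change and 5.49 between stages in bladder. In urethra it was −2.96, the only one to turn direction (smooth muscle share 32.5% at E14.5, or 29.9% without replicate 1, and 29.5% at E18.5). With striated actins alone it was 2.54 at E14.5, 12.7 at E18.5, 10.1 for the change and 22.1 between stages in bladder; these hold part of the actins by construction.

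Uncalled differences that turned direction with single libraries left out were the change of the difference for Acta1 (−2.51 to 2.99), Actc1 (−0.87 to 1.67) and Actg1 (−0.0884 to 0.151), and the urethral stage difference of Acta2 (−0.38 to 0.17) and Actg1 (−0.227 to 0.0121). Without replicate 1 of both E14.5 groups, the change for Actg1 was −0.17, and the urethral stage differences were 0.20 for Acta2, 0.0181 for Actg2 and 0.0353 for Actg1.

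Same-numbered E14.5 libraries deviated together at 0.191, −0.0285 and 0.206, and those of unequal number at −0.265 to 0.133. Whether the numbers pair the E14.5 samples was thus not settled. With the replicate block, the E14.5 differences of Acta1 (3.88 ± 0.34, adjusted p = 0.000332) and Actc1 (2.53 ± 0.30, adjusted p = 0.000980) passed. The block changed no other call of an actin. In the comparisons between stages it ties libraries of different litters by number alone, so there it is no check of the calls. The paired test of the E18.5 share (37.5 points, exact p = 0.25) was added after the data were seen. A fit of the compared libraries alone could not be made for the change, which uses all 12. Depth limits Acta1 in E14.5 urethra, where the lowest library held 18 counts.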
